A study of Mus musculus with 6 samples.

Results

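Imprinted genes are expressed from only 1 of the 2 parental copies, some of them only in certain tissues. Here 40 of them were followed in mouse embryos carried by diabetic and by normal dams. The list was drawn up by known parental expression: 17 genes are expressed from the maternal copy, 22 from the paternal copy, and Gnas has transcripts of both kinds. Members were all probe sets that the platform's table gives exactly 1 symbol, that of a listed gene. This found 98 probe sets for 37 of the 40 genes, among 45101 probe sets in all. H19, Rtl1 and Zrsr1 had no probe set of their own. The only probe set of H19 also carried the symbol of the microRNA gene Mir675. Ascl2, a transcription factor of the placental trophoblast, Slc22a18, a membrane transporter, and Rasgrf1, an exchange factor for Ras, had probe sets that were all among the 33.3% dimmest and were not tested. The other 34 genes were tested, with 77 probe sets.

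Genomic imprinting silences 1 parental copy of a gene by DNA methylation that is laid down in the egg or the sperm and kept through the divisions of the early embryo. Imprinted genes lie in clusters around a control region, where a long noncoding RNA expressed from one parent's copy often silences protein-coding neighbours on the same chromosome. Many paternally expressed genes promote growth of the embryo and placenta and many maternally expressed genes restrain it, with Igf2 and its receptor Igf2r as the classic opposed pair. An array signal sums both parental copies, and the embryos were of 1 inbred strain, so that the data give the total level of each transcript and not the allele it came from.

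RNA came from whole FVB embryos at embryonic day 10.5. Dams of the diabetes-exposed embryos had received 2 injections of 100 mg streptozotocin per kg, which kills pancreatic beta cells, and their blood glucose exceeded 250 mg per dl. Control embryos came from dams without diabetes. Each group held 3 pools of 3 embryos, every embryo of a pool from a different pregnancy, with 1 Affymetrix Mouse 430 2.0 array for a pool. Signals are on the linear scale that the authors deposited, differences are diabetes-exposed minus control on the log2 scale, and ± after a difference is its standard error.

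The 2 groups of arrays differed in more than exposure. The ratio of 3' to middle signal of the poly-A spikes, synthetic transcripts that are labelled along with the RNA, was 2.10, 2.07 and 2.52 in control pools 1 to 3 and 6.56, 3.47 and 7.00 in diabetes-exposed pools 1 to 3. For beta-actin the 3' signal over the 5' signal was 1.71 to 2.19 in control pools and 10.1, 3.09 and 10.3 in diabetes-exposed pools. In both ratios diabetes-exposed pool 2 lay nearest the controls, and no pool of one group overlapped the other. Of 12 markers of embryonic blood, heart, neural tube, somite and vessels, all 12 passed the filter on dim probe sets, 4 were higher and 4 lower in diabetes-exposed pools. The 3 heart markers Myl7, Tnnt2 and Myh6 were higher, by 1.16, 0.70 and 0.56 on the log2 scale, and the 3 neural markers Nes, Pax6 and Sox2 were lower, with differences of -1.196, -0.76 and -0.61. Of 11 markers of placenta and decidua, 7 had a probe set, 3 were tested and 1 was lower in diabetes-exposed pools. The summed signal of the 7 was 6049 to 6893 in control pools and 376.3 to 544.8 in diabetes-exposed pools. In control pools most of it was the decidual prolactin family member Prl8a2, at 6211 ± 447 there and 36.3 ± 4.88 in diabetes-exposed pools (SD, n = 3). Tpbpa and Ctsq, which mark the placental trophoblast, were near background in both groups, with means of 2.27 to 10.3. The 6 markers of yolk sac, of which 2 were higher in diabetes-exposed pools, summed to 4018 to 4631.5 in control pools and 6170.5 to 9954 in diabetes-exposed pools. Fewer cells of a type and less RNA per cell cannot be told apart in such pools, and the part of these differences in the values below was not tested except where a value is given.

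Of the 34 tested genes, 6 rose and 7 fell in diabetes-exposed embryos at an adjusted p under 0.05. The 6 that rose were Slc38a4, Impact, Nap1l5, Ndn, Cd81 and Ube3a, by 1.21- to 1.59-fold. The 7 that fell were Peg10, Usp29, Osbpl5, Cdkn1c, Nnat, Igf2 and Mest, by 1.22- to 3.51-fold. The shares of imprinted genes called were close to those of all genes: 17.6% of them rose and 20.6% fell, beside 17.6% and 19.9% of all 13956 tested genes. The 3 control pools and the 3 diabetes-exposed pools did not overlap for 19 of the 34 genes, 55.9%, beside 52.3% of all tested genes. At the level of probe sets 13 of 77 rose and 17 fell, beside 14.4% and 21.8% of all 30025 tested probe sets. Without diabetes-exposed pools 1 and 3, whose spike ratios were farthest from the controls, 5 of the 6 genes that rose were still called and only 2 of the 7 that fell, Cdkn1c and Osbpl5. With 1 pool left out at a time, Usp29 and Mest were called only when diabetes-exposed pool 2 was the one left out. Ube3a was lost without any 1 of the control pools or diabetes-exposed pool 3, Nap1l5 without control pool 1 or 3 or diabetes-exposed pool 1 or 3, and Peg10 without control pool 1. The split of directions also moved with the scaling of the arrays, to 13 higher and 4 lower with median centring and 6 higher and 11 lower with quantile normalization.

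**Figure D1:**
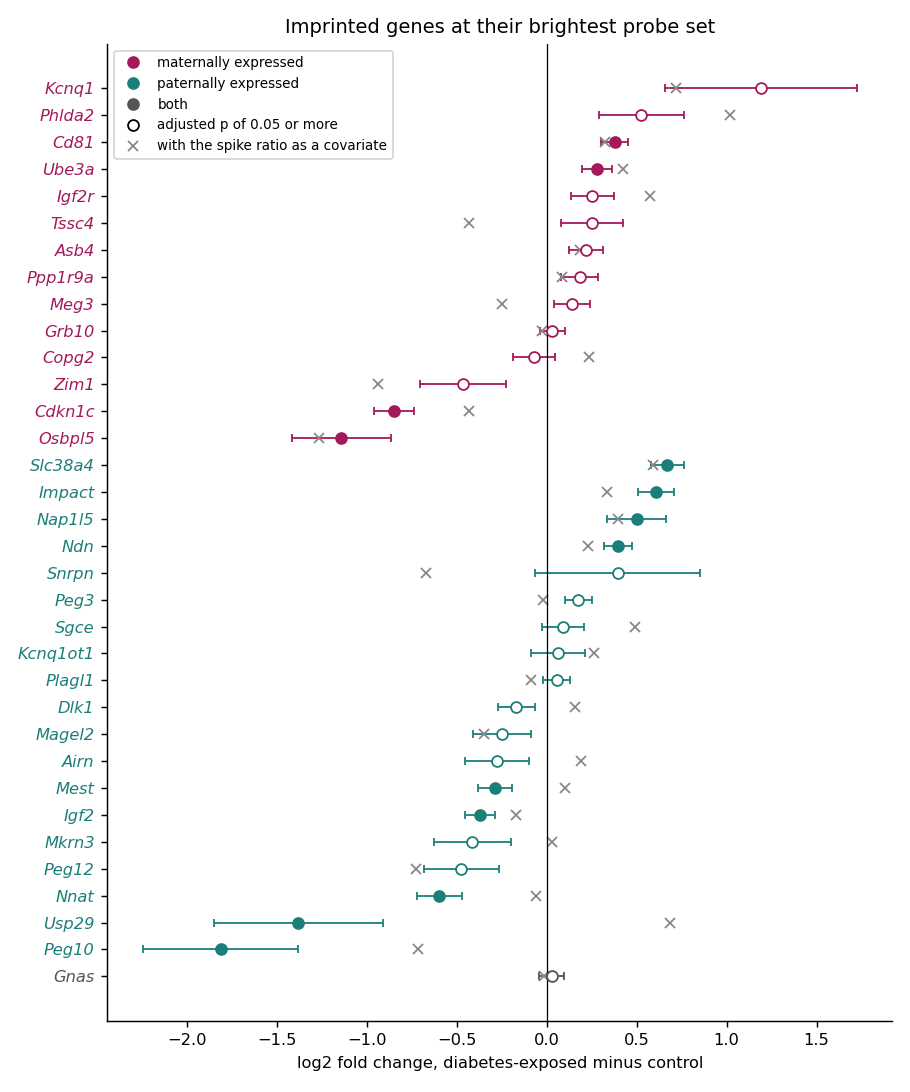
Each point is the difference in mean log2 signal between diabetes-exposed and control pools (horizontal axis, 3 pools per group) of 1 of 34 imprinted genes at its brightest probe set, with bars of 1 standard error. Filled points passed an adjusted p of 0.05, open points did not, and grey crosses give the same difference with the spike ratio as a covariate. Maternally expressed genes run from -1.14 (Osbpl5) to 1.19 (Kcnq1) and paternally expressed genes from -1.81 (Peg10) to 0.67 (Slc38a4).

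Maternally and paternally expressed genes were both mixed in direction. The classes go by known parental expression, which for some members holds only in certain tissues. For Ube3a, for example, it holds in neurons and not in most other cells. The classes thus need not describe expression throughout a whole embryo. No allele was measured in these embryos. Of the 14 tested maternally expressed genes Cd81 and Ube3a rose and Cdkn1c and Osbpl5 fell, and 7 of 14 did not overlap between groups. Of the 19 tested paternally expressed genes 4 rose and 5 fell, and 12 of 19 did not overlap. The shares higher, lower and without overlap were 14.3%, 14.3% and 50.0% for maternally expressed genes. They were 21.1%, 26.3% and 63.2% for paternally expressed genes, beside 17.6%, 19.9% and 52.3% of all tested genes. The median difference was 0.20 for maternally and -0.17 for paternally expressed genes, beside -0.00025 for all tested genes. Taken pool by pool as the median deviation of its members from their own mean log2 signal, the maternal class lay at -0.065, -0.052 and -0.096 in control pools and at 0.033, 0.069 and 0.097 in diabetes-exposed pools. The paternal class lay at 0.0030, -0.014 and 0.12 in control pools and at -0.045, 0.066 and 0.0033 in diabetes-exposed pools. Of the 2 classes the maternal one alone separated the groups, and it did so by less than the change of any single gene that was called. The sign of the maternal median also depended on reading each gene at its brightest probe set: with a gene taken as the mean over its tested probe sets the maternal median was -0.25 and the paternal one -0.29. Median centring of the arrays, which moved the median of all genes to 0.30, placed the maternal median at 0.50 and the paternal one at 0.13. The 2 classes spanned a similar range of mean signal, 38.1 to 13206 for maternally and 40.1 to 18337 for paternally expressed genes, and signals of different probe sets cannot be ranked further against each other.

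Of the growth regulators, a paternally expressed growth factor and a maternally expressed growth inhibitor were both lower. Igf2, the insulin-like growth factor of the embryo, had a signal of 13769.7, 13575 and 12745 in control pools and 10653, 10932 and 9490.2 in diabetes-exposed pools. All 3 diabetes-exposed pools lay below all 3 control pools, and the difference was -0.37 ± 0.083 (adjusted p = 0.00890). Cdkn1c, the cyclin-dependent kinase inhibitor p57, had a signal of 6723, 6854 and 5652 in control pools and 3415, 3997 and 3265 in diabetes-exposed pools. Its groups were also apart and the difference was -0.85 ± 0.11 (adjusted p = 0.00106), the smallest adjusted p of the 34 genes. Adjusted for the spike ratio, these differences were -0.17 for Igf2 and -0.43 for Cdkn1c, with adjusted p of 0.566 and 0.207. After median centring Igf2 differed by -0.071 (adjusted p = 0.751) and was no longer called, and with eBayes without a trend its adjusted p was 0.0531. Quantile and cyclic loess normalization gave larger differences for Igf2, -0.66 and -0.70, and kept its call (adjusted p = 9.31e-04 and 0.00151).

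No other member of the growth axis passed at its brightest probe set. Igf2r, the receptor that removes IGF2 from the cell surface, had a signal of 963.5, 900.1 and 947.9 in control pools and 1156, 1254 and 963.1 in diabetes-exposed pools. Control pool 2 was lowest, the upper 2 diabetes-exposed pools were above all controls, and the groups overlapped only through diabetes-exposed pool 3 and control pool 1 (difference 0.25 ± 0.12, adjusted p = 0.124). Grb10, an adaptor that restrains signalling from the insulin and IGF1 receptors, averaged 13058 in control and 13353 in diabetes-exposed pools, a difference of 0.032 ± 0.069 (adjusted p = 0.751). Gnas, which encodes the stimulatory G protein alpha subunit, averaged 15191 and 15484, a difference of 0.027 ± 0.068 (adjusted p = 0.790). Both groups of each of these 2 genes overlapped. The Delta-like membrane protein gene Dlk1 had a signal of 8241, 8137 and 8828 in control pools and 6646, 8606 and 7294 in diabetes-exposed pools. Diabetes-exposed pool 2 lay within the control range and the other 2 below it, and the gene did not pass (difference -0.17 ± 0.10, adjusted p = 0.242). Phlda2, which limits growth of the placenta, was dim, at 96.9 to 108.2 in control and 110.1 to 177.4 in diabetes-exposed pools, with no overlap and a difference of 0.53 ± 0.24 that did not pass (adjusted p = 0.118).

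Of the genes for membrane proteins, Slc38a4 and Cd81 rose and Nnat fell. Slc38a4, a transporter of neutral amino acids that is prominent in placenta and liver, had a signal of 1547, 1357 and 1587 in control pools and 2312, 2358 and 2460.5 in diabetes-exposed pools. The lowest diabetes-exposed pool was well above the highest control pool, with a difference of 0.67 ± 0.092 (adjusted p = 0.00129). At the other Slc38a4 probe set, 1448889_at, the groups did not overlap either, but the smaller difference of 0.22 ± 0.11 did not pass (adjusted p = 0.150). The summed markers of yolk sac, most of it signal of Afp, were also higher in every diabetes-exposed pool. Afp and Ttr were called, at 0.90 and 0.82, or 0.26 and 0.065 with the spike covariate. Apoa1, Apob, Cubn and Amn were not called, at 0.47, 0.68, -0.090 and 0.012. The part of these markers in the Slc38a4 difference was not tested. The tetraspanin Cd81 had a signal of 4102, 3925 and 4296 in control pools and 5424, 5297 and 5296 in diabetes-exposed pools. Its diabetes-exposed pools lay closer together than the controls and all above them, by 0.38 ± 0.075 (adjusted p = 0.00516). Adjusted for the spike ratio, the differences were 0.59 for Slc38a4 and 0.33 for Cd81, close to those without it, but neither passed (adjusted p = 0.163 and 0.274). Nnat, which encodes the small membrane protein neuronatin of the developing nervous system, moved the other way, with a signal of 11308, 10926 and 9239.7 in control pools and 6708, 8136 and 6041 in diabetes-exposed pools. Diabetes-exposed pool 2 again lay nearest the controls. The difference of -0.60 ± 0.12 (adjusted p = 0.00669) shrank to -0.060 with the covariate, and after median centring it was -0.30 and not called (adjusted p = 0.159). Under quantile and cyclic loess normalization Nnat differed by -0.89 and -0.87 and was called. The 3 neural markers were lower in diabetes-exposed pools as well. With the covariate the differences of Nes, Pax6 and Sox2 were -0.96, 0.10 and -0.68. The part of these markers in the Nnat difference was not tested. The sarcoglycan gene Sgce and the dim potassium channel gene Kcnq1 overlapped between groups and did not pass, with differences of 0.090 ± 0.12 and 1.19 ± 0.53 (adjusted p = 0.589 and 0.117).

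Among regulators, Impact and Ndn rose at their brightest probe sets and Ube3a rose at one set of probes and fell at another. Impact, an inhibitor of the amino acid sensing kinase GCN2, had a signal of 942.2, 961.9 and 968.9 in control pools and 1450.0, 1326 and 1607 in diabetes-exposed pools. Its control pools were nearly equal and every diabetes-exposed pool was higher, by 0.61 ± 0.10 (adjusted p = 0.00254). Ndn, the MAGE family gene necdin of postmitotic neurons, had a signal of 6189, 6240.0 and 6475 in control pools and 8186, 7870.2 and 8847 in diabetes-exposed pools. The difference at this brightest probe set was 0.40 ± 0.077 (adjusted p = 0.00490). Of its 5 tested probe sets 4 rose, all without overlap. The other, 1415923_at, differed by 0.012 (adjusted p = 0.940). There diabetes-exposed pools 1 and 3 lay below all control pools and diabetes-exposed pool 2 above them. Ube3a encodes a ubiquitin ligase that is maternally expressed in neurons and from both copies in most other cells. Its brightest probe set had a signal of 4412, 4120.4 and 4199.8 in control pools and 4737, 5456 and 5258 in diabetes-exposed pools, with no overlap and a difference of 0.28 ± 0.083 (adjusted p = 0.0305). The zinc finger gene Peg3 had a signal of 11079, 10848 and 11203 in control pools and 12829.8, 11641 and 13020.5 in diabetes-exposed pools, all diabetes-exposed pools above all controls, but did not pass (difference 0.18 ± 0.076, adjusted p = 0.102). Its maternally expressed neighbour Zim1, another zinc finger gene, was dim and lay apart in the other direction, with a signal of 107.1, 100.1 and 105.7 in control pools and 81.6, 63.6 and 83.2 in diabetes-exposed pools (difference -0.46 ± 0.24, adjusted p = 0.164). Plagl1, a zinc finger transcription factor, overlapped between groups at its brightest probe set (difference 0.055 ± 0.073, adjusted p = 0.594). The MAGE gene Magel2 and the RING finger gene Mkrn3, both neighbours of Ndn, had groups that did not overlap and differences of -0.25 ± 0.16 and -0.41 ± 0.21 that did not pass (adjusted p = 0.263 and 0.168).

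The remaining coding genes held the 3 members that fell 2-fold or more at the probe set read for the gene, all of them dim. Peg10, a gene derived from a retrotransposon and needed for placental development, had a signal of 144.7, 125.6 and 91.4 in control pools and 17.9, 49.6 and 43.3 in diabetes-exposed pools. The summed markers of placenta and decidua were lower as well, and in control pools most of that sum was signal of Prl8a2. In diabetes-exposed pools Prl8a2 was at 39.0, 39.3 and 30.7 and Plac1 at 374.6, 352.8 and 235.9. Of the other tested markers on that list, Plac1 differed by 0.34 and Psg23 by -0.10, and neither passed (adjusted p = 0.213 and 0.818). The part of these tissues in the Peg10 difference was not tested. Usp29, of the ubiquitin-specific protease family, had a signal of 175.4, 148.3 and 112.4 in control pools and 56.6, 108.2 and 27.1 in diabetes-exposed pools. Osbpl5, an oxysterol-binding lipid transfer protein, had a signal of 254.6, 245.5 and 217.5 in control pools and 75.5, 104.5 and 160.8 in diabetes-exposed pools. In all 3 genes the highest diabetes-exposed pool was below the lowest control pool, and the differences were -1.81 ± 0.43, -1.38 ± 0.47 and -1.14 ± 0.27 (adjusted p = 0.0117, 0.0475 and 0.0121). With the covariate they were -0.72, 0.68 and -1.26, where Usp29 turned and Osbpl5 had a difference of like size that did not pass (adjusted p = 0.362). Mest, a member of the alpha/beta hydrolase fold family expressed in mesoderm, had a signal of 20802, 20295 and 19234 in control pools and 15433, 18851 and 15408 in diabetes-exposed pools. Diabetes-exposed pool 2 was close under the lowest control pool and the other 2 farther down. The difference of -0.29 ± 0.096 (adjusted p = 0.0458) became 0.10 with the covariate and 0.013 after median centring. It was -0.59 with quantile and -0.70 with cyclic loess normalization, where Mest was called. Its neighbour Copg2, a coatomer subunit, had a signal of 1337, 1462 and 1539 in control pools and 1237, 1576 and 1332 in diabetes-exposed pools, and its groups overlapped (difference -0.071 ± 0.11, adjusted p = 0.670). Nap1l5, related to nucleosome assembly proteins, had a signal of 168.8, 209 and 171.1 in control pools and 258.4, 243.5 and 271.1 in diabetes-exposed pools. Its diabetes-exposed pools were all higher, by 0.50 ± 0.16 (adjusted p = 0.0398). Asb4 (an ankyrin repeat and SOCS box protein), Ppp1r9a (the actin-binding neurabin), Tssc4, Snrpn (a small nuclear ribonucleoprotein) and Peg12 did not pass at their brightest probe sets. Their differences lay between -0.47 ± 0.21 for Peg12 and 0.39 ± 0.46 for Snrpn. At another probe set, 1423422_at, Asb4 was called lower, by -0.32 ± 0.096 (adjusted p = 0.0290). Ppp1r9a was called higher at 1458942_at, by 0.72 ± 0.14 (adjusted p = 0.00530), and both were without overlap. Snrpn was read at a dim probe set, since 6 others carried the symbol of Snurf as well and were left out.

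**Figure D2:**
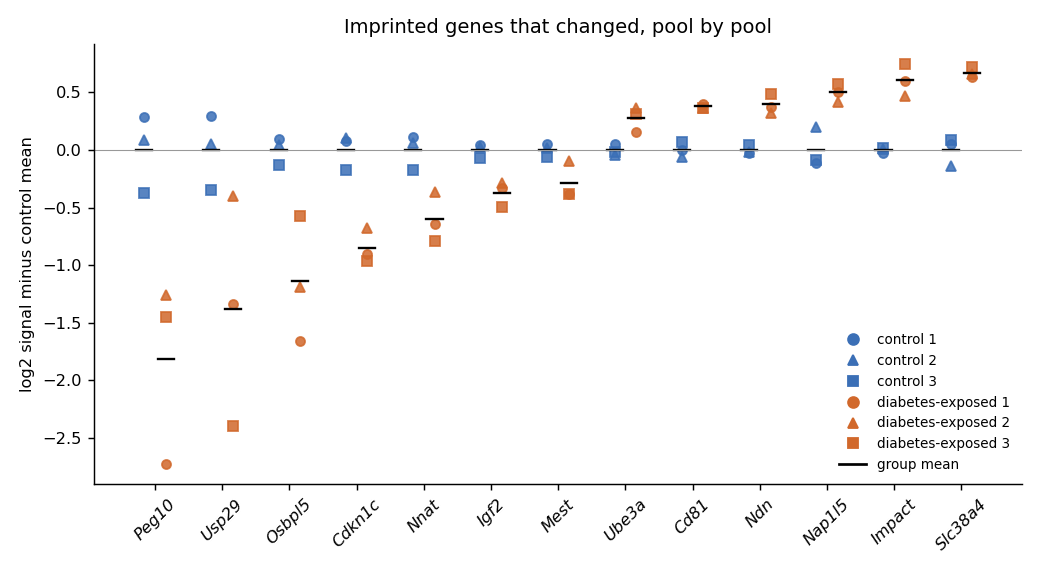
Log2 signal of each pool minus the mean of the control pools (vertical axis) for the 13 imprinted genes that passed an adjusted p of 0.05, with 3 control pools and 3 diabetes-exposed pools per gene and a line at each group mean. For all 13 genes the groups stand apart, and diabetes-exposed pool 2 is the diabetes-exposed pool nearest the controls for 6 of the 7 genes that fell, Osbpl5 being the exception.

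None of the 3 noncoding RNAs of the clusters passed at its brightest probe set. Kcnq1ot1, whose paternal transcription silences Cdkn1c and its neighbours, had a signal of 1498, 1764 and 2163 in control pools and 1655, 2132 and 1847 in diabetes-exposed pools. The pools of both groups interleaved (difference 0.063 ± 0.15, adjusted p = 0.776). Airn, the paternal transcript that silences Igf2r, had a signal of 830.8, 891.4 and 906.4 in control pools and 535.4, 888.1 and 798 in diabetes-exposed pools. Diabetes-exposed pool 1 was lowest and pool 2 lay among the controls (difference -0.27 ± 0.18, adjusted p = 0.268). Another Airn probe set, 1436627_at, was called higher, with a signal of 161, 182.8 and 234.1 in control pools and 313.1, 274.7 and 296.5 in diabetes-exposed pools, all diabetes-exposed pools above all controls and a difference of 0.63 ± 0.18 (adjusted p = 0.0244). Meg3, the maternal RNA of the Dlk1 cluster, had a signal of 11300.4, 10240.1 and 10638 in control pools and 12751, 10194 and 12700.2 in diabetes-exposed pools. Its diabetes-exposed pool 2 was the lowest of all 6 pools and the other 2 the highest (difference 0.14 ± 0.10, adjusted p = 0.321).

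Promoter sequence was available for 33 of the 40 genes in RefSeq (GRCm38.p6), as windows from 250 bases before to 50 after each annotated start. The windows were searched on both strands for TGCCGC, read as GCGGCA on the other strand, the hexamer that the imprint-protecting zinc finger protein ZFP57 binds when it is methylated. It occurred in a window of 11 of the 33 genes, 33.3%, beside 13.1% of all 27025 genes with a window and 28.1% of those genes with at least as many CpG as the median of these genes, 17. These 33 genes had 52 windows and the 27025 genes had 32851, so the shares do not rest on equal numbers of windows per gene. The hexamer was found in 5 of 14 maternally and 6 of 18 paternally expressed genes. Among the tested genes it was in 5 of the 10 that changed and 6 of the 19 that did not pass. The 5 are shown here because they changed, Nap1l5 upwards and the other 4 downwards, with the hexamer in capitals in either orientation and each window read 5′ to 3′ on the strand of its gene. The Nap1l5 window is chr6:58907077-58907376 on the minus strand. The Mest window, at 1 of its 3 annotated starts, is chr6:30737803-30738102 on the plus strand. The window of another Mest start, chr6:30737800-30738099, overlaps it and also held 2 copies. The Nnat window is chr2:157559828-157560127 on the plus strand. The Igf2 window, at 1 of its 4 annotated starts, is chr7:142661222-142661521 on the minus strand. The Osbpl5 window, at 1 of its 3 annotated starts, is chr7:143740311-143740610 on the minus strand.
Nap1l5: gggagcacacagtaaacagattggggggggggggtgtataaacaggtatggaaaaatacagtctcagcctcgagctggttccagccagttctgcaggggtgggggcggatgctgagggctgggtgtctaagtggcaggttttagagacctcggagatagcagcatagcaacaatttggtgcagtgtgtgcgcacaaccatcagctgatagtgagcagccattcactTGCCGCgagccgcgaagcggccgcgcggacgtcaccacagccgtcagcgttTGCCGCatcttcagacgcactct
Mest: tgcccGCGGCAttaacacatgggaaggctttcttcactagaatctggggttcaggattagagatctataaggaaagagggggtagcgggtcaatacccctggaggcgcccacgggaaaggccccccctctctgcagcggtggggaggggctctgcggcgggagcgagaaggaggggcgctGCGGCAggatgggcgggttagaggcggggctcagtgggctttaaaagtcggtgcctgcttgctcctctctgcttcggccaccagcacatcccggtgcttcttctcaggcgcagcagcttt
Nnat: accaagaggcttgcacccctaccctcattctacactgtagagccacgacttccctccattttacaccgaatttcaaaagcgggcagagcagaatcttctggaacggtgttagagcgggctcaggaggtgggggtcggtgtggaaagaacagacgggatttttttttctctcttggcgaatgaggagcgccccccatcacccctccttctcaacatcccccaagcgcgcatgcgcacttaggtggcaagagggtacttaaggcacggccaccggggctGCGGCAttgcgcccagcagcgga
Igf2: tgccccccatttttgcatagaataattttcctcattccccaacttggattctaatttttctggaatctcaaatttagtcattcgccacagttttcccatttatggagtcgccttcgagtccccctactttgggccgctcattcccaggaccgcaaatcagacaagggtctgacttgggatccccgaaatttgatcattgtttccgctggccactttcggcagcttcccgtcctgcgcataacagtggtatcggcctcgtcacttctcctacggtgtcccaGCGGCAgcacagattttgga
Osbpl5: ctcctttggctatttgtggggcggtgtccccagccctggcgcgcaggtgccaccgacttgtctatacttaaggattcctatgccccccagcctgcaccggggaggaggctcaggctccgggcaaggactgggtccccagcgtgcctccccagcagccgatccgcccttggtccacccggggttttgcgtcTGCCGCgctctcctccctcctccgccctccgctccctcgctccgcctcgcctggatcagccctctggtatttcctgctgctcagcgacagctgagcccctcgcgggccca
The Nap1l5 and Mest windows each held 2 copies and the other 3 windows 1 copy. The windows of Peg3 and Usp29, which start in opposite directions, shared 263 bases and held no copy. A match describes letters of the reference sequence, and these arrays measured neither methylation nor binding.

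The count of calls did not outlast a correction for the spike ratio. With that ratio as a covariate in the limma model 0 of 34 genes rose and 0 fell, beside 0.0788% and 1.73% of all tested genes. At an unadjusted p under 0.05 the same fit gave 5 genes higher and 1 lower, 14.7% and 2.94%, beside 6.43% and 11.3% of all tested genes. The direction was the same with the covariate for 6 of the 6 genes that rose and for 5 of the 7 that fell, Usp29 and Mest being the exceptions. The spike ratio was higher in every diabetes-exposed pool than in every control pool. It and the exposure therefore cannot be told apart in this design. The covariate also widened many standard errors, for example from 0.075 to 0.13 for Cd81. Others narrowed, as from 0.096 to 0.092 for Mest and from 0.61 to 0.31 for Peg3 at 1417356_at.

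Different probe sets of 1 imprinted gene gave very different answers. Among the 17 members for which more than 1 probe set was tested, 9 had probe sets that differed by more than 1 on the log2 scale in their change, beside 39.5% of the 6515 such genes on the array. Members carried up to 11 tested probe sets, so these shares do not rest on equal numbers. The widest case was Plagl1. Its probe set 1450533_a_at had a signal of 653.5, 728.8 and 462.1 in control pools and 6.3, 137.1 and 6.2 in diabetes-exposed pools, a difference of -5.11 ± 1.04 (adjusted p = 0.00591), whereas its brightest, 1426208_x_at, had a signal of 14732, 14292 and 14246 in control pools and 15331, 14152 and 15514 in diabetes-exposed pools. Diabetes-exposed pool 2 lay between the controls and the other 2 diabetes-exposed pools at the former. Peg3 showed the same order of pools: its probe set 1417356_at had a signal of 4876, 4766 and 4272 in control pools and 268.8, 1614 and 246.5 in diabetes-exposed pools, a difference of -3.29 ± 0.61 (adjusted p = 0.00395), against 0.18 ± 0.076 at the brightest. Igf2r did so too at 1424112_at, with a signal of 814.4, 773.9 and 437.2 in control pools and 148.3, 415.8 and 117.2 in diabetes-exposed pools and a difference of -1.75 ± 0.44 (adjusted p = 0.0152). Adjusted for the spike ratio, these 3 differences became 0.55, 0.025 and 0.60.

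In 2 further genes control pool 3, the control pool with the highest spike ratio, lay near the diabetes-exposed pools. Grb10 at 1425457_a_at had a signal of 1258, 743.1 and 52.0 in control pools and 27.1, 50.6 and 31.4 in diabetes-exposed pools. There control pool 3 was only just above diabetes-exposed pool 2, and the difference of -3.38 ± 1.003 (adjusted p = 0.0288) rested on control pools 1 and 2. Ube3a was the only member with probe sets called in both directions, beside 8.58% of genes read by more than 1 tested probe set. Its probe set 1425206_a_at had a signal of 319.2, 297.5 and 45.2 in control pools and 24.4, 7.9 and 43.0 in diabetes-exposed pools, a difference of -3.01 ± 0.84 (adjusted p = 0.0231), in which diabetes-exposed pool 2 was lowest and control pool 3 close to diabetes-exposed pool 3. A further Ube3a probe set, 1445727_at, fell by 0.91 (adjusted p = 0.00614), and 1416682_at rose by 0.66 (adjusted p = 0.0101). In Meg3, 3 of 11 probe sets fell and none rose, from -1.55 at 1436713_s_at to 0.14 at the brightest. Kcnq1ot1 rose at 1 dim probe set, 1442029_at, with a signal of 95.7, 131 and 72.8 in control pools and 185, 241.4 and 244 in diabetes-exposed pools and a difference of 1.19 ± 0.25 (adjusted p = 0.00737), the only member probe set that rose 2-fold or more. Of the 17 member probe sets that fell, 9 fell 2-fold or more, and 6 of these were not the brightest of their gene. The 43 member probe sets that were not the brightest of their gene had a median difference of -0.16, beside -0.23 for all such probe sets. The table gives no position of a probe set along its transcript, so whether the dimmer ones lie farther from the 3' end was not tested.

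**Figure D3:**
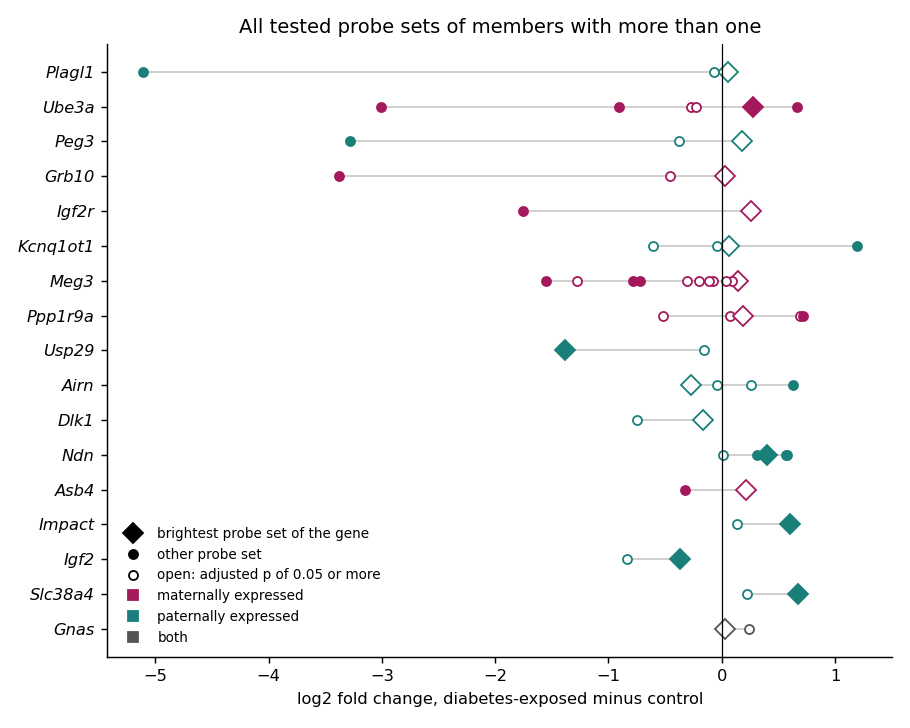
The horizontal axis gives the difference between diabetes-exposed and control pools in log2 signal (3 pools per group) of every tested probe set of the 17 imprinted genes that had more than 1, 1 gene per line. Diamonds mark the brightest probe set of a gene, circles the others, and filled symbols passed an adjusted p of 0.05. The brightest probe sets lie near 0 for Plagl1, Peg3, Grb10 and Meg3, while another probe set of the same gene lies between -1.55 and -5.11.

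**Figure D4:**
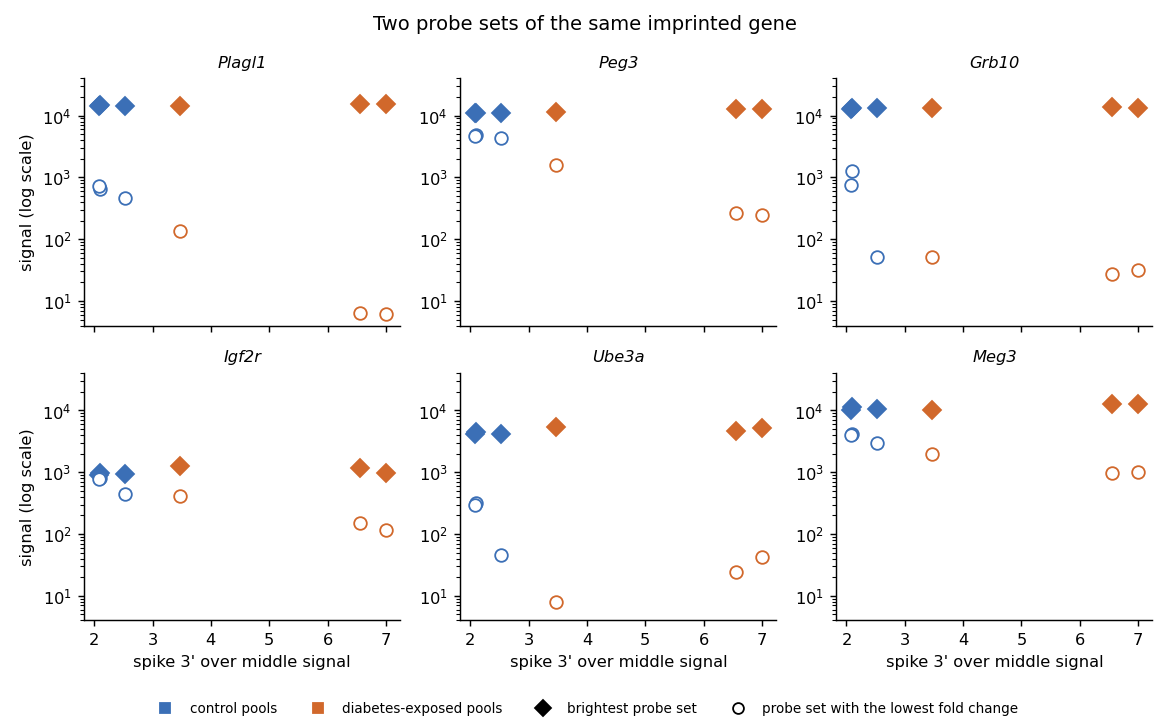
Signal (vertical axis, log scale) of 2 probe sets of the same gene against the ratio of 3' to middle signal of the poly-A spikes (horizontal axis) in 3 control and 3 diabetes-exposed pools, for 6 imprinted genes. Filled diamonds are the brightest probe set and open circles the one with the lowest difference. Open circles of Plagl1, Peg3, Igf2r and Meg3 in diabetes-exposed pool 2, at a ratio of 3.47, lie between the control pools and the diabetes-exposed pools at 6.56 and 7.00. That of Grb10 lies there too, just under control pool 3, and that of Ube3a is the lowest of the 6 pools.

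Reciprocally imprinted neighbours were compared as the ratio of the paternally to the maternally expressed gene within each pool. A single scaling factor per array cancels in such a ratio, but a normalization that treats bright and dim probe sets differently does not. Only the change of such a ratio has a meaning, since the level depends on the probe sets. A pair of Igf2 and H19 could not be formed, and 6 pairs were tested with a two-sided exact permutation test, in which 3 against 3 pools cannot give a p below 0.1. The ratio of Kcnq1ot1 to Cdkn1c changed most in size, from -2.17, -1.96 and -1.39 in control pools to -1.04, -0.91 and -0.82 in diabetes-exposed pools on the log2 scale. All diabetes-exposed pools were higher, by 0.91 on average (exact p = 0.1, adjusted over 6 pairs 0.15), where Kcnq1ot1 itself differed by 0.063 and Cdkn1c by -0.85. The ratio of Peg3 to Zim1 was 6.69, 6.76 and 6.73 in control and 7.30, 7.52 and 7.29 in diabetes-exposed pools, higher by 0.64 without overlap (exact p = 0.1, adjusted 0.15). The ratio of Airn to Igf2r was -0.21, -0.014 and -0.065 in control and -1.11, -0.50 and -0.27 in diabetes-exposed pools, lower by 0.53 without overlap (exact p = 0.1, adjusted 0.15). Mest over Copg2 was 3.96, 3.79 and 3.644 in control and 3.641, 3.58 and 3.53 in diabetes-exposed pools, lower by 0.22 (exact p = 0.1, adjusted 0.15), with the lowest control and the highest diabetes-exposed pool all but equal. The ratios of Dlk1 to Meg3 and of Snrpn to Ube3a overlapped between groups, with differences of -0.31 and 0.12 (exact p = 0.4 and 0.8, adjusted 0.48 and 0.8). With quantile and with cyclic loess normalization, tried on the pairs after seeing the data, Peg3 over Zim1 differed by 0.022 and 0.13 and Mest over Copg2 by -0.59 and -0.65. None of the 6 pairs could pass at this number of pools. With the mean of all tested probe sets of a gene in place of the brightest, Airn over Igf2r was higher by 0.89 and Peg3 over Zim1 lower by 0.70, so that the direction of these 2 pairs hung on the probe set read.

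**Figure D5:**
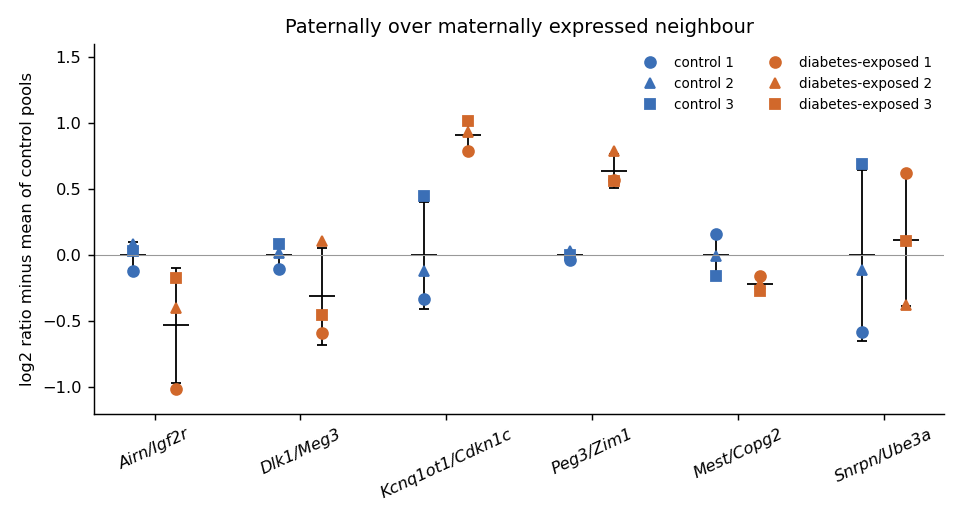
Log2 ratio of the paternally over the maternally expressed neighbour in each pool minus its mean over the control pools (vertical axis), for 6 pairs with 3 control and 3 diabetes-exposed pools each. Bars are the mean and 1 standard deviation. Kcnq1ot1/Cdkn1c (0.91) and Peg3/Zim1 (0.64) lie higher in all diabetes-exposed pools, Airn/Igf2r (-0.53) and Mest/Copg2 (-0.22) lower, and the other 2 pairs overlap.

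Genes for proteins that write, read and guard imprints changed in both directions. Of 24 listed regulators 22 were tested, of which 3 rose and 7 fell, 13.6% and 31.8% beside 17.6% and 19.9% of all tested genes, with a median difference of 0.0049. The histone methyltransferase gene Ehmt2 (G9a) averaged 4382 ± 468 in control and 1019.8 ± 377 (SD, n = 3) in diabetes-exposed pools, a difference of -2.16 (adjusted p = 5.09e-04). Mbd3, of the NuRD chromatin complex, fell by 1.39 (adjusted p = 7.16e-04). Tet2, which oxidises methylated cytosine, rose by 0.55 (adjusted p = 0.0140), and Uhrf1, which brings DNMT1 to replicated DNA, rose by 0.34 (adjusted p = 0.0206). The binder of the hexamer above, Zfp57, had a difference of 0.32 and did not pass (adjusted p = 0.279). The maintenance methyltransferase gene Dnmt1 had one of 0.23 (adjusted p = 0.127), and both genes were named after their values were seen. With the spike ratio as a covariate Ehmt2 alone of the 22 still passed, at -1.01 (adjusted p = 0.0405).

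A further list of 34 imprinted genes, not among the 40, had 26 tested genes with a median difference of 0.030. Of these 7 rose and 2 fell, 26.9% and 7.69%, beside 17.6% and 19.9% of all tested genes. The maternal noncoding RNA Rian, a host of small nucleolar RNAs downstream of Meg3, rose most. At its brightest probe set it had a signal of 907.8, 1082 and 1184 in control pools and 2313, 2753 and 2340.4 in diabetes-exposed pools, with every diabetes-exposed pool far above every control and a difference of 1.23 (adjusted p = 4.46e-04). With the covariate the difference was 1.44 (adjusted p = 0.0352), the only one of the 26 genes to pass there. At another Rian probe set, 1427580_a_at, the values were 476.1, 558.3 and 466.2 in control pools and 131.7, 499.3 and 118.8 in diabetes-exposed pools, a difference of -1.33 in the other direction that did not pass (adjusted p = 0.0562). Mirg, the next noncoding RNA of the same cluster, named after its values were seen, rose at its brightest probe set by 0.57 (adjusted p = 0.0138). At another Mirg probe set, 1457030_at, the groups overlapped and the difference of 0.11 did not pass (adjusted p = 0.525). Commd1, a regulator of copper and NF-kappaB, rose by 0.56 (adjusted p = 0.00137). The paternally expressed Zdbf2 fell by 0.58 (adjusted p = 0.00300). Trappc9, a subunit of a vesicle tethering complex, fell by 0.74 (adjusted p = 0.0359). Its diabetes-exposed pool 2, at 360.6, was close under control pool 3, at 363.6. With the covariate Zdbf2 differed by -0.58 and Trappc9 by 0.37, and neither passed (adjusted p = 0.227 and 0.574).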

How the data were processed

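Each of 6 pools of whole embryos was measured on 1 Affymetrix Mouse 430 2.0 array. The authors deposited 1 linear signal intensity for each probe set, computed by MAS5 in GCOS (versions not given in the sources here) and scaled by them to a common array average. Such scaling makes every signal relative to the rest of its array. Median signals were 82.5 to 103.3 in control and 74.1 to 78.9 in diabetes-exposed pools, and the number of arrays limits the precision. The labels give pools as separate samples.

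Log2 signals were fitted in limma (version 3.58.1, R 4.3.3) with lmFit and eBayes with a trend. The 64 control probe sets and the 33.3% with the lowest mean log2 signal were left out, p-values were adjusted by Benjamini-Hochberg over 30025 probe sets, and calls were made at an adjusted p under 0.05. A gene was read at the brightest of its tested probe sets by mean log2 signal. The platform's table, which can be old, gave 1 symbol to 34958 probe sets and several to 932. Values per pool are given for members of a reciprocal pair and for called members, and for other lists the 2 genes with the smallest adjusted p in each direction. Probe sets other than the brightest were singled out with their values in view. The members and lists were chosen with earlier results of these data known.

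The spike ratio averages 8 pairs of poly-A probe sets and entered as log2. Alternatives were cyclic loess and quantile normalization, median centring, a pseudocount of 32, other filters on dim probe sets (none, or 50%), eBayes without a trend, the spike covariate, the replicate number as a block, each pool left out, probe sets of several transcripts left out, a gene read as the mean over its probe sets, the methods' t-test (Welch) and a regularized test as in Cyber-T (window 101, prior weight 10). The fit without diabetes-exposed pools 1 and 3, and quantile and loess normalization for the pairs, were added after seeing the data. The procedure was tested on simulated data. Promoters are those of RefSeq, GRCm38.p6. Plots were made in matplotlib 3.10.9 (Python 3.11.15).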

Additional observations from a re-analysis of the deposited data

How the results depend on the processing

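The spike covariate and the methods' t-test after Benjamini-Hochberg adjustment each left 0 member genes and 0 member probe sets in either direction. At an unadjusted p under 0.05 the methods' t-test kept 6 of the 6 genes that rose and 4 of the 7 that fell, with 8 probe sets lower, while the regularized test as in Cyber-T kept 6 of 6 and 7 of 7. Median centring gave 13 genes higher and 4 lower and 22 probe sets higher, quantile normalization 11 genes lower (with it and with cyclic loess normalization Ndn, Ube3a and Usp29 lost their calls), eBayes without a trend 4 genes and 9 probe sets lower, and the mean of all probe sets 12 genes lower. Without diabetes-exposed pools 1 and 3, 2 genes were lower, with 7 probe sets higher and 9 lower, the lone remaining pool being assumed to vary like the control pools. With each pool left out in turn, 4 to 9 genes rose, 4 to 8 fell, 10 to 16 probe sets rose and 9 to 17 fell. The lowest counts of lower calls, 4 genes and 9 probe sets, came without control pool 1, and without control pool 2 there were 10 probe sets lower.

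The maternal median was 0.50 with centring, 0.099 with quantile and 0.12 with loess normalization, 0.14 with the spike covariate, 0.13 without diabetes-exposed pools 1 and 3, -0.25 with the mean of all probe sets and 0.13 to 0.23 with each pool left out. The paternal median was 0.13 with centring, -0.056 with no filter, 0.10 with the covariate, -0.013 without diabetes-exposed pools 1 and 3, -0.27 without probe sets of several transcripts, -0.29 with the mean of all probe sets and -0.26 to -0.057 with each pool left out. Of single genes, Peg3 turned to -0.14 with quantile normalization and to -1.16 with the mean of all probe sets, as did Ube3a (-0.58), Meg3 (-0.43) and Igf2r (-0.75) with that mean. Usp29 (0.68) and Mest (0.10) turned with the spike covariate, and Mest (0.013) with centring. Of the pairs, Airn over Igf2r was 0.89, Dlk1 over Meg3 -0.024, Peg3 over Zim1 -0.70 and Snrpn over Ube3a 0.97 with the mean of all probe sets. With the covariate Dlk1 over Meg3 was 0.40, Peg3 over Zim1 0.91 and Snrpn over Ube3a -1.10, and a pseudocount of 32 gave Peg3 over Zim1 0.52. Quantile and cyclic loess normalization of the pairs, added after seeing the data, gave Peg3 over Zim1 0.022 and 0.13 and Mest over Copg2 -0.59 and -0.65, and kept the direction of all 6 pairs. With each pool left out the pairs kept their direction except Snrpn over Ube3a, at -0.17 to 0.46: Airn over Igf2r lay at -0.71 to -0.29, Dlk1 over Meg3 at -0.52 to -0.17, Kcnq1ot1 over Cdkn1c at 0.75 to 1.14, Mest over Copg2 at -0.29 to -0.13 and Peg3 over Zim1 at 0.57 to 0.68. The causes of these shifts were not tested, beyond the smaller number of samples where pools were left out.

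The replicate numbers did not pair the pools: deviations of same-numbered pools from their group means correlated at 4.94e-05, 0.0761 and 0.118. With the replicate number as a block 5 of the 6 genes that rose and 7 of the 7 that fell were still called, Nap1l5 being lost. The pair of Igf2 and H19 was not run, as H19 had no probe set of its own.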
